A study of Homo sapiens with 4 samples.

Results

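Chromosome 21 is the smallest human autosome, and the genes described here are those that an Agilent 4x44K expression array places on it. They are 335 genes, of which 334 are among the 30561 genes of the array with a value, and their probes are those that the array's own annotation puts on chromosome 21 of the hg18 build, after leaving out RUNX1, ERG, ETS2, MX1, MX2, NCAM2, CBS, CHAF1B, PKNOX1, ITGB2 and the collagen genes. The set was chosen by its position, but chromosome 21 was picked among the chromosomes on the measured shift of its genes in these same arrays, so that shift is given as a description with no test. By the sample titles and the study, RNA came from Meg-01, a human megakaryoblastic leukemia line. GATA1 5-13 and GATA1 4-14 are each 1 colony grown from soft agar after infection with a lentivirus that carries a GATA1 shRNA, and GATA1 Neg, the comparator, is a pool of Meg-01 cells infected with the negative control shRNA lentivirus, all selected with puromycin. Each clone was set against GATA1 Neg on 2 arrays with the dyes in opposite orientation, so all 4 arrays carry the same control RNA, its own spread was not measured, and values of the clones are not independent of each other. The extraction text of the labels names clones of another line, CMK, in place of Meg-01. Which line the RNA came from was not tested here, and neither was its number of copies of chromosome 21. GATA1, the targeted gene, had log2 ratios (clone over GATA1 Neg, negative where the clone was dimmer) of -0.21 and -0.34 in GATA1 5-13, 1 value per array, with -0.43 and -0.58 in GATA1 4-14. Of the defining megakaryocyte genes, ITGA2B, GP9, GP1BA (by 1 of its 2 probes) and GATA1 were above background in the control RNA on all 4 arrays, while PF4 was not well above background on any.

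Chromosome 21 is best known for trisomy 21, the cause of Down syndrome, in which genes of the chromosome are present in an extra copy. Children with Down syndrome have a much raised risk of acute megakaryoblastic leukemia, and their blasts carry mutations in GATA1, the X-linked zinc finger factor that directs megakaryocyte and erythroid differentiation. Genes of the chromosome include the interferon receptor chains, enzymes of folate and purine metabolism, and the kinases and chromatin proteins of 21q22, the band long studied as the Down syndrome region. The study describes Meg-01 as a line from outside Down syndrome, which holds for these arrays only if the RNA came from Meg-01.

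Of the 335 genes, carried by 455 probes, 334 had a value on all arrays; TMPRSS2, a membrane serine protease, lacked one. A gene is called measured here when at least 1 of its probes was well above background in both RNAs on all 4 arrays. That held for 164 chromosome 21 genes (49.1%) against 56.8% of all genes of the array, and the other 170 with a value are given separately, since a ratio of signals near background tends to 0 after the background correction used. Among the members that were not measured are nearly all of the genes listed for other tissues, such as the keratin-associated proteins of hair, the trefoil factors of gut mucosa, the claudins and the potassium channels: 2 of 32 were measured.

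In both clones the measured chromosome 21 genes lay below 0 as a group. Their median log2 ratio was -0.12 on the first array and -0.11 on the second array of GATA1 5-13, and for GATA1 4-14 these medians were -0.19 and -0.18. With the arrays of a clone averaged, the median was -0.11 in GATA1 5-13 and -0.19 in GATA1 4-14, against -0.0083 and 0.0021 for the 17171 measured genes that lie elsewhere. Over all 334 genes, with the dim ones included, the medians were -0.038 and -0.050, and over the 170 that were not measured they were -0.0029 and -0.0099.

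Set beside the other chromosomes, with all measured genes of each, the median of chromosome 21 (173 genes, the left-out ones included) was the lowest of 23 in GATA1 4-14, at -0.19, where the next was chromosome 1 at -0.018. In GATA1 5-13 it was -0.10 and ranked 2 from the lowest, after chromosome 1 at -0.15 and before chromosome 18 at -0.066. The array pairs of each clone gave chromosome 21 nearly the same median in both dye orientations.

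**Figure D1:**
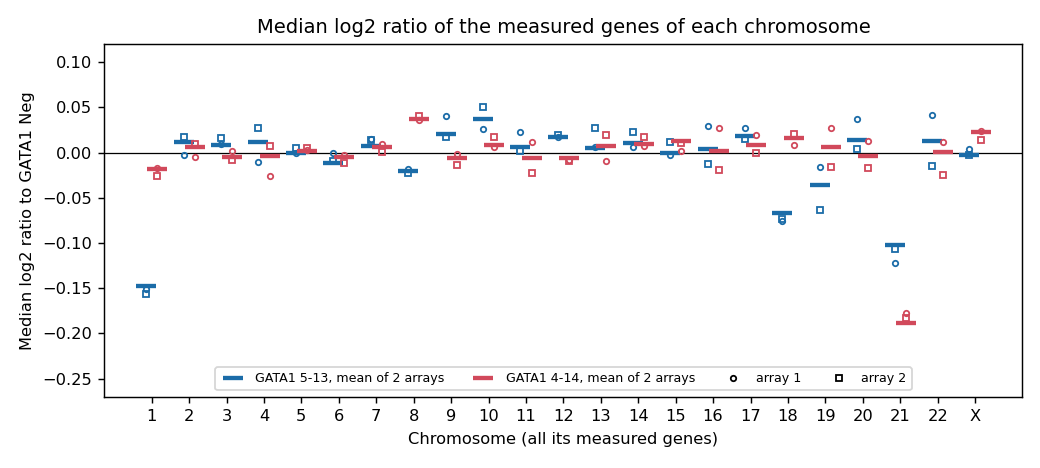
Median log2 ratio to GATA1 Neg (vertical axis) of the measured genes of each chromosome (horizontal axis), with bars for the mean of the 2 arrays of a clone and open symbols for the single arrays. Chromosome 21 lies at -0.10 in GATA1 5-13 and -0.19 in GATA1 4-14, and chromosome 1 at -0.15 in GATA1 5-13 but at -0.018 in GATA1 4-14.

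The low values were not limited to a few genes. In GATA1 5-13, 97 of the 164 (59.1%) were lower on both arrays, where 39.4% of all measured genes of the array were, and 36 (22%) were higher on both, where 37.3% of all were. In GATA1 4-14, 116 (70.7%) were lower on both arrays against a background of 31.3%, and 17 (10.4%) were higher against 31.6%. With median centring in place of loess, where the dye bias was not removed, the shares of chromosome 21 genes lower on both arrays were 30.5% and 47.0%, and the shares higher were 11% and 6.1%, against 19.2% and 14.0% lower and 19.0% and 14.0% higher over all measured genes. These shares are those of the contrast on which chromosome 21 was picked, so nothing further is read from them.

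The clones differed in how the genes were spread. In GATA1 4-14 the values of genes elsewhere were tight, with an interquartile range of 0.14, and 91 of the 164 chromosome 21 genes (55.5%) lay below their 10th percentile of -0.17. In GATA1 5-13 genes elsewhere were more scattered (interquartile range 0.29), and 32 of 164 (19.5%) lay below their 10th percentile of -0.34. The upper quartile of the chromosome 21 genes was 0.03 in GATA1 5-13 and -0.03 in GATA1 4-14, against 0.14 and 0.07 for genes elsewhere. The difference between the clones for a gene (GATA1 5-13 minus GATA1 4-14) had a median of 0.03 and an interquartile range of 0.29, and it was under 0.25 in size for 119 genes and over 0.5 for 15.

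**Figure D2:**
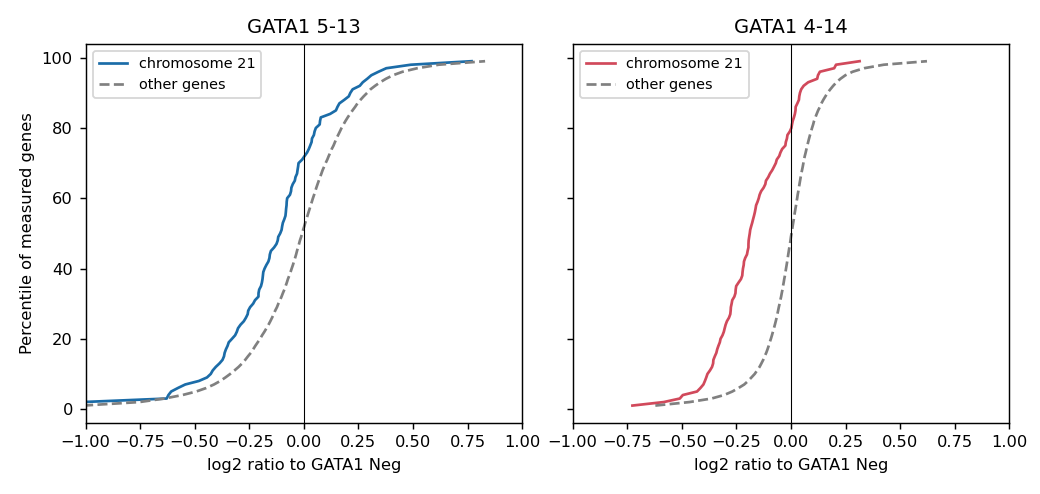
Percentile (vertical axis) against log2 ratio to GATA1 Neg (horizontal axis) for the 164 measured chromosome 21 genes (solid) and the 17171 measured genes elsewhere (dashed), 1 panel per clone. The chromosome 21 curve lies to the left of the other genes over most of its length, with the wider gap in GATA1 4-14.

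The size of the shift differed with brightness, the mean log2 intensity of both channels. Of all genes cut into 3 equal tertiles by brightness, the highest tertile held 95 chromosome 21 genes, whose median was -0.16 for GATA1 5-13 but -0.25 for GATA1 4-14, against -0.010 and 0.00094 for the other genes of that tertile. In the middle tertile the medians of 116 chromosome 21 genes were -0.042 and -0.065, and in the lowest tertile those of 123 were -0.0021 and -0.0078. Of these, 69 in the middle tertile and 0 in the lowest were measured. The background correction used draws ratios of dim probes toward 0, so low medians of dim genes do not show that their RNA was unshifted. Its part in the difference between the tertiles was not tested. Of the 95 bright genes, 74 (77.9%) lay below 0 in GATA1 5-13 and 82 (86.3%) in GATA1 4-14, where 51.8% and 49.6% of bright genes elsewhere did. The interquartile range of these bright genes in GATA1 4-14 ran from -0.33 to -0.12. A smaller share of chromosome 21 genes (28.4%) than of other genes (33.4%) fell into the highest tertile.

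**Figure D3:**
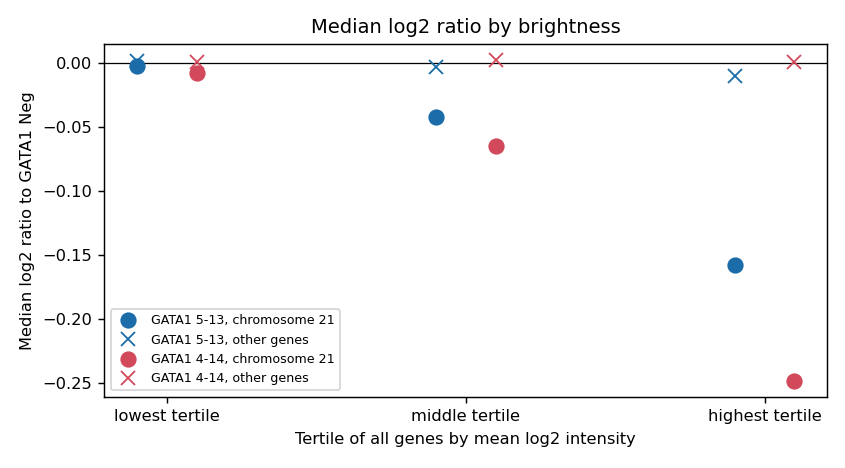
Median log2 ratio to GATA1 Neg (vertical axis) in tertiles of mean log2 intensity over all genes (horizontal axis), for chromosome 21 genes (circles) and genes elsewhere (crosses) in each clone. The chromosome 21 medians go from -0.0021 and -0.0078 in the lowest tertile to -0.16 and -0.25 in the highest, while those of the other genes stay near 0. The background correction used draws ratios of dim probes toward 0.

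From 25 Mb to the long-arm end the medians of all 5 Mb windows lay below 0 in both clones. In 5 Mb windows of hg18, the 18 measured genes from 25 to 30 Mb had medians of -0.17 in GATA1 5-13 and -0.26 in GATA1 4-14, the 37 genes from 30 to 35 Mb -0.16 and -0.19, and the 28 from 35 to 40 Mb -0.19 and -0.20. From 40 to 45 Mb (28 genes) the median was -0.05 in GATA1 5-13 and -0.20 in GATA1 4-14, and from 45 Mb to the end (24 genes) -0.18 and -0.20. Nearer the centromere the clone medians had opposite signs in all windows but that from 20 to 25 Mb. The median of the 13 genes from 15 to 20 Mb was 0.05 in GATA1 5-13 but -0.19 in GATA1 4-14, and that of the 9 genes from 10 to 15 Mb -0.06 and 0.04. The 2 genes from 5 to 10 Mb had medians of -0.07 and 0.10, and the 5 from 20 to 25 Mb -0.05 and -0.14.

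A running median of 15 neighbouring measured genes was below 0 in 141 of 150 stretches in GATA1 5-13 and in 147 of 150 in GATA1 4-14. The lowest stretch in GATA1 5-13 had a median of -0.23 and ran from C21orf63 to THC2740750, and the lowest in GATA1 4-14 had a median of -0.30 and ran from IFNGR2 to DSCR1. The first spans the 4 interferon and interleukin receptor genes, and the second starts with the last of them. The highest stretches were 0.14 in GATA1 5-13, from SAMSN1 to THC2628566, and 0.04 in GATA1 4-14, from TPTE to USP25, both in the part nearest the centromere. Farther out, the stretches from AK023647 to A_32_P84119 and from PRDM15 to CSTB were at 0.0091 in GATA1 5-13.

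**Figure D4:**
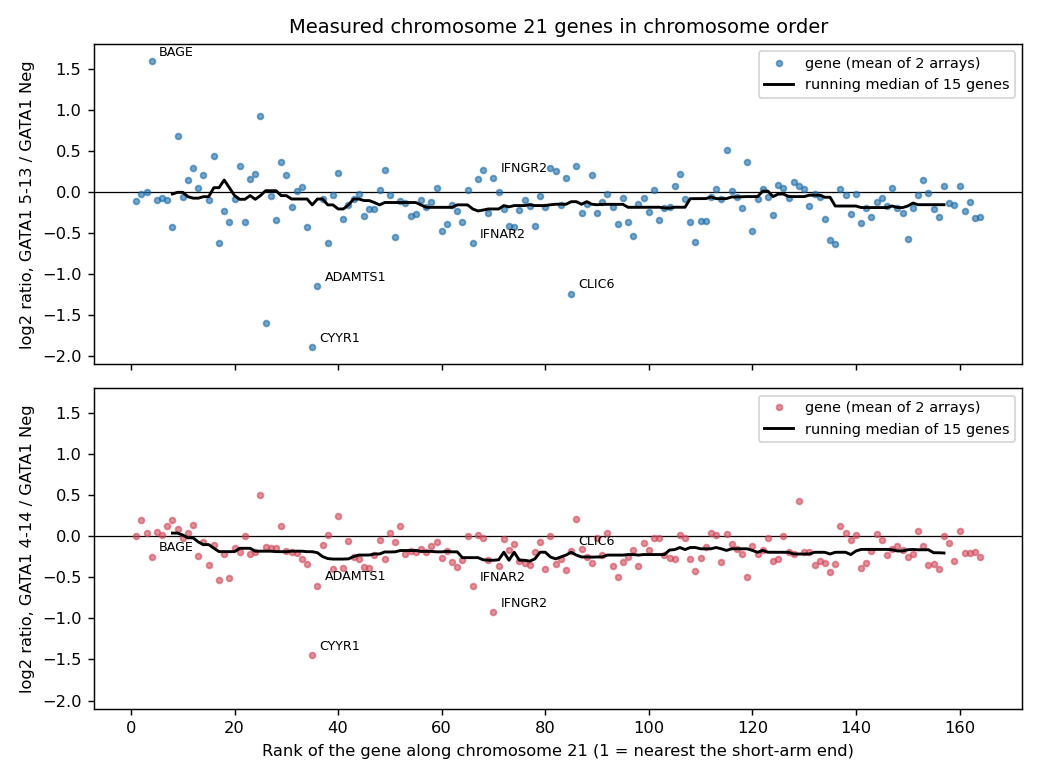
Log2 ratio to GATA1 Neg (vertical axis) of the 164 measured chromosome 21 genes by their rank along the chromosome (horizontal axis), each point the mean of 2 arrays and each line the running median of 15 genes, with GATA1 5-13 above and GATA1 4-14 below. The running median is below 0 in 141 of 150 stretches in GATA1 5-13 and 147 of 150 in GATA1 4-14, and CYYR1 is the lowest gene in both panels.

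Gene by gene, no chromosome 21 gene passed limma's test of the mean of the clones after Benjamini-Hochberg adjustment over all 30561 genes (0 of 334 at an adjusted p of 0.05, background 0% of all genes); the lowest adjusted p of a chromosome 21 gene was 0.40. At an unadjusted p under 0.05, 64 genes had a mean below 0, where the background was 3.95% of all genes, and 4 above, where it was 3.46%. At the unadjusted limit of 0.005 there were 7 below 0, where the background over all genes was 0.596%, and 0 above, where it was 0.327%. The count of 7 became 3 with only the probes well above background, where the background in both directions was 1.32%. It became 47 (background 5.47%) or 46 (4.21%) when the 4 arrays were taken as 4 values without or with a block for the replicate number, which takes arrays of the same clone as independent. The 7 were CYYR1, CXADR, IFNAR2, MORC3, UBE2G2 and the unnamed transcripts THC2664742 and BQ438133. With 2 clones as the replicates and a shared control RNA, these p-values rest on the spread between the clones alone. limma moderates that spread with the spread of all genes, so they do not measure the clone spread of the single gene.

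The lowest value belonged to CYYR1, a cysteine and tyrosine rich membrane protein whose function is little known, at chr21:26760551-26762111 on hg18 (the span of its 2 probes). Both arrays of GATA1 5-13 (-1.94 and -1.84) and both arrays of GATA1 4-14 (-1.52 and -1.38) gave low log2 ratios, which is 27% and 36.6% of the control level. The arrays of GATA1 5-13 were lower than those of GATA1 4-14. The mean over the clones was -1.67 ± 0.31 (SD, n = 2 clones; limma, adjusted p = 0.40).

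Next among the measured genes along the chromosome lies ADAMTS1 (chr21:27131496-27131639), a secreted metalloprotease that cuts proteoglycans of the matrix. Its log2 ratios were -1.21 and -1.08 in GATA1 5-13 and -0.66 and -0.54 in GATA1 4-14, and the mean was -0.87 ± 0.38 (SD, n = 2 clones; limma, adjusted p = 0.58). Its neighbour ADAMTS5, a related protease of cartilage matrix, was named after its values were seen: it was not well above background in GATA1 4-14, with log2 ratios of -2.22 and -1.97 there, at least 3.02-fold lower than in GATA1 Neg, while its ratios in GATA1 5-13 were -0.18 and -0.19.

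LOC391271, an unnamed locus at chr21:20719958-20720017, and CLIC6, a member of the intracellular chloride channel family, were low mainly in 1 clone. LOC391271 had log2 ratios of -1.60 and -1.59 in GATA1 5-13 and of -0.08 and -0.19 in GATA1 4-14. CLIC6 had -1.33 and -1.14 in GATA1 5-13 and -0.26 and -0.09 in GATA1 4-14. Both are among the 4 measured genes with the largest difference between the clones, and their SDs over the clones, 1.03 and 0.75, are larger than their means of -0.87 and -0.71 in size.

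IFNAR2, which encodes the ligand-binding chain of the type I interferon receptor, had the most even values of the 10 lowest genes: -0.62 and -0.64 in GATA1 5-13 and -0.60 and -0.62 in GATA1 4-14. That is 64.7% and 65.4% of the control level, with a mean of -0.62 ± 0.01 (SD, n = 2 clones; limma, adjusted p = 0.40). The size depends on the background correction: the mean was -0.32 with none and -0.85 with the Feature Extraction log ratios. The other low genes were the unnamed transcripts THC2664742 (mean -0.57), ENST00000380749 (-0.52), which lies between the outer probes of HMGN1, and BQ438133 (-0.51), and then C21orf33 and MORC3. C21orf33, now named GATD3, a mitochondrial protein, has its probe next to that of BQ438133, and its log2 ratios were -0.63 and -0.65 in GATA1 5-13 and -0.24 and -0.45 in GATA1 4-14. MORC3, a nuclear ATPase that associates with PML bodies, had -0.45 and -0.32 in GATA1 5-13 and -0.53 and -0.46 in GATA1 4-14.

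UBE2G2, a ubiquitin-conjugating enzyme of endoplasmic reticulum quality control, gave -0.39 and -0.38 in GATA1 5-13 and -0.39 and -0.38 in GATA1 4-14, and CXADR, the coxsackievirus and adenovirus receptor, had means of -0.49 and -0.56, with none of its 3 probes above background in both RNAs on all arrays. Both were named for being past the unadjusted limit, after their values were seen.

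The highest values of measured genes with the same sign on all 4 arrays belonged to THC2628566, an unnamed transcript, with 1.02 and 0.82 in GATA1 5-13 and 0.49 and 0.52 in GATA1 4-14, and to RBM11, an RNA-binding splicing regulator, with 0.69 and 0.67 in GATA1 5-13 but 0.07 and 0.10 in GATA1 4-14. They were followed by ENST00000358356 (mean 0.26) and the probes A_32_P84119 (0.25) and A_24_P585660 (0.24), which have no gene name on the array. Of these 5, RBM11 alone has a gene symbol. At the other extreme, TIAM1, an exchange factor for the GTPase Rac, and ICOSLG, the ligand of the T cell costimulator ICOS, were nearest 0 from below, with means of -0.0014 and -0.0013, and ENST00000329367 and LOC402026 nearest from above.

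Among measured genes BAGE, a melanoma antigen gene whose family has near-identical copies on several chromosomes, had the largest difference between the clones. Its log2 ratios were 1.54 and 1.64 in GATA1 5-13 and -0.27 and -0.23 in GATA1 4-14, and since copies can share a probe, the locus that gave the signal is uncertain. The related BAGE4, by its own probe, had -0.09 and 0.08 in GATA1 5-13 and 0.02 and 0.06 in GATA1 4-14.

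**Figure D5:**
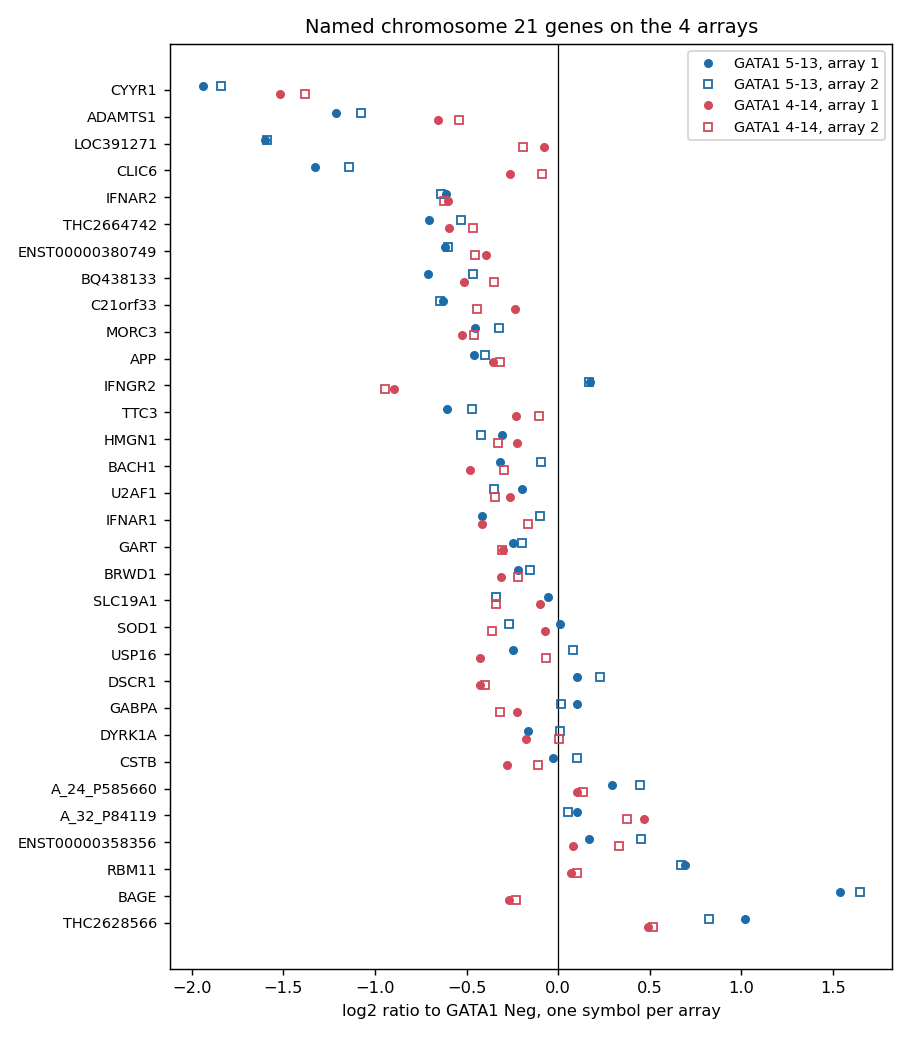
Log2 ratio to GATA1 Neg (horizontal axis) of the named genes (vertical axis) on each array, with filled circles for the first array and open squares for the second array of each clone. CYYR1 is low on all 4 arrays, IFNAR2 lies between -0.64 and -0.60, and IFNGR2 and BAGE lie on opposite sides of 0 in the clones.

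The genes of 4 receptor chains sit side by side at chr21:33557839-33731151 and did not share a pattern. IFNAR1, the signalling partner of IFNAR2, had log2 ratios of -0.42 and -0.10 in GATA1 5-13 and -0.42 and -0.17 in GATA1 4-14. IFNGR2, a chain of the interferon gamma receptor, had 0.17 and 0.17 in GATA1 5-13 and -0.90 and -0.94 in GATA1 4-14, 52.8% of control in the latter. IL10RB, the chain shared by receptors of the interleukin 10 family, lies between IFNAR2 and IFNAR1 and had means of 0.16 and 0.02 over its 2 probes. In GATA1 4-14 its probes disagreed, with 0.18 and 0.19 by 1 probe and -0.11 and -0.18 by the other. So IFNAR2 and IFNAR1 were below 0 on all arrays, and IFNGR2 was on opposite sides in the clones. IL10RB was above 0 on all arrays, but in GATA1 4-14 only by the average of its probes. The list of interferon and cytokine receptors had 5 measured genes, these 4 and ICOSLG, a ligand. Of the 5, 2 (40%) were lower and 2 higher on both arrays of GATA1 5-13. In GATA1 4-14, 3 (60%) were lower and 1, IL10RB by its average, was higher on both arrays. For this and the next lists, the shares over all measured genes of the array are 39.4% lower and 37.3% higher in GATA1 5-13, and 31.3% lower and 31.6% higher in GATA1 4-14. Over the 164 measured chromosome 21 genes they are 59.1% lower and 22% higher in GATA1 5-13, and 70.7% and 10.4% in GATA1 4-14. Every list lies on the chromosome picked for its low values, so an excess over the whole array is not a result about the list. The lists are broad, and their names do not hold for every member. The receptor list in GATA1 5-13 was near the shares of the whole array.

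The list of folate, purine and carbonyl metabolism is spread over several places on the chromosome. It takes in genes of other functions too, among them HLCS, AGPAT3, LSS, PFKL, SOD1 and PDXK. Of its 13 genes, 9 were measured. Of these, 4 (44.4%, near the 39.4% of all measured genes) were lower and 2 higher on both arrays of GATA1 5-13, and 8 (88.9%, against 31.3%) were lower and 0 higher in GATA1 4-14, with medians of -0.08 and -0.30. GART, which carries out several steps of purine synthesis, had means of -0.22 and -0.30 over its 3 probes. SLC19A1, the reduced folate carrier that also takes up methotrexate, had means of -0.20 and -0.22. Its single arrays gave -0.06 and -0.34 in GATA1 5-13 and -0.10 and -0.34 in GATA1 4-14, so most of the decrease was on the second array of each clone. SOD1, the cytosolic superoxide dismutase, had 0.01 and -0.27 in GATA1 5-13 and -0.07 and -0.36 in GATA1 4-14, so it was low on the second array of each clone and near 0 on the first. PDXK, the pyridoxal kinase, had means of 0.12 and -0.22. CBR1, the carbonyl reductase that converts anthracyclines, had 0.03 and 0.38 in GATA1 5-13 and -0.48 and -0.19 in GATA1 4-14.

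Genes of protein turnover and folding had 18 of 22 members measured, and 13 (72.2%, against 39.4% of all measured genes) were lower on both arrays of GATA1 5-13 and 17 (94.4%, against 31.3%) on both of GATA1 4-14. The count higher on both arrays was 0 in each clone, and the medians were -0.20 and -0.27. APP, the amyloid precursor protein whose extra copy is tied to early Alzheimer disease in Down syndrome, had -0.46 and -0.40 in GATA1 5-13 and -0.36 and -0.32 in GATA1 4-14. TTC3, a ubiquitin ligase, had -0.61 and -0.47 in GATA1 5-13 and -0.23 and -0.11 in GATA1 4-14 over 4 probes. USP16, a deubiquitinase of histone H2A, had -0.25 and 0.08 in GATA1 5-13 and -0.43 and -0.07 in GATA1 4-14, and its mean of -0.17 ranged from -0.26 to -0.075 when 1 array was left out. CSTB, an inhibitor of cathepsins, had means of 0.04 and -0.19. The highest gene of the list, STCH (now HSPA13, a chaperone of the HSP70 family), had a mean of -0.04.

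Of 17 transcription and chromatin genes 12 were measured, with 8 (66.7%, against 39.4% of all measured genes) lower and 2 higher on both arrays of GATA1 5-13, and 11 (91.7%, against 31.3%) lower and 0 higher in GATA1 4-14 (medians -0.19 and -0.26). HMGN1, a nucleosome-binding protein, gave -0.31 and -0.42 in GATA1 5-13 and -0.22 and -0.33 in GATA1 4-14 over 5 probes. BACH1, a repressor regulated by heme, had means of -0.21 and -0.39, and BRWD1, a bromodomain protein, -0.19 and -0.27. GABPA, an ETS factor that acts in megakaryocytes among other cells, had 0.10 and 0.02 in GATA1 5-13 and -0.23 and -0.32 in GATA1 4-14, and NRIP1, a nuclear receptor corepressor, the highest of the list, had means of 0.21 and -0.07.

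All 15 genes of RNA processing and ribosome production were measured, and 11 (73.3%, against 39.4% of all measured genes) were lower and 3 higher on both arrays of GATA1 5-13, and 12 (80%, against 31.3%) lower and 1 higher in GATA1 4-14 (medians -0.17 and -0.20). U2AF1, which recognises the splice acceptor site, had means of -0.28 and -0.30, and ZNF294, now LTN1, a ubiquitin ligase of stalled ribosomes and the lowest of the list, -0.33 and -0.39; RBM11 was the highest. Of 7 mitochondrial protein genes 6 were measured, with 4 (66.7%) lower and 1 higher on both arrays of GATA1 5-13, and 6 (100%) lower in GATA1 4-14 (medians -0.13 and -0.28). MRPS6, a protein of the mitochondrial ribosome, was the highest of them, with 0.12 and 0.39 in GATA1 5-13 and -0.50 and -0.19 in GATA1 4-14.

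In the list of kinases and signalling proteins, 12 of 20 were measured, and 7 (58.3%, against 39.4% of all measured genes) were lower and 4 (33.3%, against 37.3%) higher on both arrays of GATA1 5-13, and 10 (83.3%, against 31.3%) lower and 0 higher in GATA1 4-14 (medians -0.07 and -0.23). DYRK1A, the kinase of the Down syndrome region, had -0.16 and 0.01 in GATA1 5-13 and -0.17 and 0.0032 in GATA1 4-14 over its 4 probes, so it was low on the first array of each clone and near 0 on the second. Its mean of -0.082 ranged from -0.13 to -0.037 when 1 array was left out. Of the 4 probes, 1 was above background throughout and had a mean of -0.24. DSCR1, now RCAN1, an inhibitor of calcineurin, had 0.10 and 0.23 in GATA1 5-13 and -0.43 and -0.40 in GATA1 4-14. PIGP, which acts in GPI anchor synthesis, was the lowest of the list, with means of -0.36 and -0.25.

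The genes of the Down syndrome region of 21q22, which overlap several of the other lists, were measured in 15 of 23 cases. Of these, 12 (80%, against 39.4% of all measured genes) were lower and 2 higher on both arrays of GATA1 5-13, 14 (93.3%, against 31.3%) were lower and 0 higher in GATA1 4-14, and the medians were -0.19 and -0.27, against -0.11 and -0.19 for all measured chromosome 21 genes. Chromosome 21 genes of the highest brightness tertile had medians of -0.16 and -0.25, and the measured ones from 25 to 30 Mb -0.17 and -0.26. Among the genes of the region MORC3 was the lowest and CBR1 the highest. The 2 measured genes of the list for other tissues, KRTAP6-3 and KRTAP10-10, keratin-associated proteins, had means of -0.02 and -0.0060.

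Genes with several probes show how far a value depends on the probe. Of the measured genes, 52 had more than 1 measured probe, and the median spread between the lowest and the highest probe's mean log2 ratio was 0.10. In 8 of them the probes lay on opposite sides of 0, and in 1, BRWD1, the spread was over 0.5 (from -0.45 to 0.13 over 5 probes). For comparison, the median of all measured chromosome 21 genes was -0.11 in GATA1 5-13 and -0.19 in GATA1 4-14.

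Some values are bounds. AL109784, an unnamed transcript, was not well above background in either clone. With the processing used it was at least 1.22-fold lower than in GATA1 Neg over both. Its mean log2 ratio of -0.30 depended on the background correction: it was -0.093 with none and -0.83 with the Feature Extraction log ratios. The bound was not recomputed for these. PRSS7, now TMPRSS15, the enteropeptidase of the gut, named after its values were seen, had log2 ratios of 1.35 and 1.65 in GATA1 5-13, at least 2.48-fold higher, and of -0.22 and -0.09 in GATA1 4-14.

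GATA1 binds the letters GATA within short flanks, so the sequence before the start of each gene was searched on both strands for the 6 letters AGATAA and for the variants of them with T in the first place, G in the last place, or both. RefSeq promoter sequences of GRCh38.p14, 250 bases before to 50 after the start, were matched for 136 of the genes by symbol. At least 1 such match was present in 23.5% of them and in 18.9% of the 90 that were measured, against 25% of all 35116 promoters. The 17 measured genes with a match had medians of -0.08 and -0.19 in GATA1 5-13 and GATA1 4-14, and the 73 without one -0.12 and -0.23. A match is a description of these letters and not a site. The 250 bases before the start are shown for the lowest gene, CYYR1, which holds 1 match (in capitals), and for MORC3 and IFNGR2, which hold none, to show how these stretches differ: their GC contents are 47.6%, 66.8% and 80.4%. The stretch of CYYR1 is chr21:26573287-26573536 on the minus strand, that of MORC3 chr21:36319947-36320196 and that of IFNGR2 chr21:33403163-33403412, both on the plus strand, each written 5′ to 3′.
CYYR1: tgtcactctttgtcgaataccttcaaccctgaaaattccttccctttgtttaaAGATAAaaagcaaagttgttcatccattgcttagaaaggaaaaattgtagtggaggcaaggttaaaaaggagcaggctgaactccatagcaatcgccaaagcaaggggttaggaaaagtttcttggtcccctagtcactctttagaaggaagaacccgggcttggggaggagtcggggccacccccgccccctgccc
MORC3: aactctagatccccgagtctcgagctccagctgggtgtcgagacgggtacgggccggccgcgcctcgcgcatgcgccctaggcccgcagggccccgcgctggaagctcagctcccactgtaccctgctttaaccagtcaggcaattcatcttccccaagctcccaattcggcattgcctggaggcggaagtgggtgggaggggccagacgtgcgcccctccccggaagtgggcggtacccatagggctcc
IFNGR2: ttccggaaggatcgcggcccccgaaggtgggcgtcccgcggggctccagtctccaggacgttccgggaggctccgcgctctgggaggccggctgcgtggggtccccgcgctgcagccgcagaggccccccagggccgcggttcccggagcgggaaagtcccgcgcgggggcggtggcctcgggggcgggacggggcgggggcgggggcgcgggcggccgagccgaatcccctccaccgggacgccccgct

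Some of the megakaryocyte markers were below 0 as well. None was past the adjusted limit of 0.05, but neither was any other gene of the array, so this says little about the markers. ITGA2B, which encodes the platelet integrin alpha IIb, had mean log2 ratios of -0.38 and -0.42 by its 2 probes in GATA1 5-13 and -0.19 and -0.18 in GATA1 4-14, and the detected probe of GP1BA, a platelet glycoprotein, -1.68 and -0.16. GP9, which encodes another, had 0.04 and -0.28 in GATA1 5-13 and 0.04 and -0.25 in GATA1 4-14, so its sign followed the array and not the clone. In bulk RNA fewer cells of a type and less RNA per cell cannot be told apart. All arrays were on 1 slide, so slide and clone are not confounded. The part of these markers, and of the origin of each clone from a single colony, in the values of chromosome 21 genes was not tested.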

How the data were processed

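RNA of GATA1 5-13 and GATA1 4-14 was hybridized against GATA1 Neg on 4 two-colour Agilent arrays. The spot mean and local background intensities were deposited by the authors as Agilent Feature Extraction 9.5.3.1 wrote them, without normalization. The log10 ratios deposited by the authors, in the scanner output and in the series value table (largest difference 4.97e-06), come from that program after background subtraction and dye normalization. The error score of each log ratio, deposited by the authors, comes from that program's error model and served for the error-weighted alternative alone. Probe positions are those of the array annotation on hg18.

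Intensities were corrected with normexp (offset 50) and normalized by loess within each array in limma 3.58.1 (R 4.3.3, the data.table package, version 1.17.8), with control spots and outlier spots left out. Log2 ratios of spots, then of probes, were averaged to genes, every ratio was put as clone over control whichever dye the clone carried, and each clone entered as the mean of its 2 arrays. limma's moderated test, two-sided, set the mean of the 2 clones against 0, with Benjamini-Hochberg adjustment over 30561 genes at 0.05, and with an unadjusted limit of 0.005 beside it. The test was checked on simulated data with the clones drawn as independent of each other. That check does not cover the control RNA that the real clones share. The number of arrays, 4, limits the precision. Figures were drawn with matplotlib 3.10.9.

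The chromosome, the members and the gene lists were chosen with earlier results of these data known. Some genes fall outside the name of their list, such as SLC37A1 and PCNT under kinases and signalling proteins and DONSON under RNA processing. Named genes were the 10 lowest and 5 highest measured genes with 1 sign on all 4 arrays, the 4 with the largest clone difference, 16 well-known genes, up to 4 genes with a bound, the 2 nearest 0 on each side, and the lowest and highest measured gene of each list. For a bound, the dim RNA was given the lowest signal called well above background on its array, or its own signal where that was higher, per channel after loess and Aquantile normalization, and bounds can carry dye bias. Of the 335 genes, 190 matched a current symbol in a RefSeq table for GRCh38.p14, used for names and promoter sequences. The combination of arrays by Rosetta Resolver was not used here.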

Additional observations from a re-analysis of the deposited data

Results flagged for a closer look

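For 9 named genes both arrays of 1 clone lay on one side of 0 and both arrays of the other clone on the opposite side. The differences below are GATA1 5-13 minus GATA1 4-14 on the log2 scale, and none of them was tested. BAGE differed by 1.84, IFNGR2 by 1.09, MRPS6 by 0.60, DSCR1 (RCAN1) by 0.58 and CBR1 by 0.54. PDXK differed by 0.34, GABPA by 0.33 and NRIP1 by 0.28. LOC402026, one of the genes nearest 0, had a difference of -0.070 and was the only one of the 9 that was higher in GATA1 4-14.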

How the results depend on the processing

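The medians of the measured genes and of the brightest tertile were below 0 in all 90 recomputed values, from -0.25 to -0.082, and each moved by less than the SD between the clones. The medians over all 334 genes, dim ones included, moved more. In GATA1 5-13 and GATA1 4-14 they were -0.0074 and -0.011 with no background correction, -0.077 and -0.12 with a normexp offset of 0, -0.019 and -0.061 with the Feature Extraction log ratios or the deposited value table, -0.025 and -0.067 with the error-weighted mean, and -0.11 and -0.19 with only the probes well above background. Median centring gave -0.024 in GATA1 5-13, and for GATA1 4-14 the median was -0.14 over genes with a RefSeq accession and -0.082 with probes kept apart. Leaving out 1 array gave -0.041 to -0.038 in GATA1 5-13 and -0.075 to -0.047 in GATA1 4-14. With median centring, 30.5% and 47.0% of the measured genes were lower on both arrays.

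No chromosome 21 gene passed the adjusted limit with the clones as replicates, and 5 to 8 passed the unadjusted limit of 0.005 when 1 array was left out, while 3 did with only the probes well above background (background 1.32% of all genes). Taking the 4 arrays as 4 values gave 47 genes past the unadjusted and 29 past the adjusted limit (5.47% and 2.96% of all genes), and the error-weighted mean with its normal p gave 62 and 60 (9.5% and 9.39% of all genes). Replicate numbers mark the dye orientation, and with the replicate number as a block the 4 arrays gave 46 and 5 (4.21% and 0.704% of all genes). Deviations from the clone means correlated at 0.75 across genes between arrays of the same number, which with 2 arrays per clone is 1 value.

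Of 47 named genes over 24 alternatives, 48 values changed sign, in 15 genes, mostly those nearest 0. TIAM1 was 0.0030 with no background correction, 0.015 with the Feature Extraction log ratios, the value table and the error-weighted mean, and 0.035 without clone GATA1 5-13. ENST00000329367 was -0.0035, -0.0022, -0.0022, -0.0030 and -0.018 there, and -0.0043 with median centring. KRTAP10-10 was 0.0079, 0.016, 0.016, 0.020 and 0.018, and 0.0060 with median centring. KRTAP6-3 was 0.0091 with the Feature Extraction log ratios and the value table, 0.016 with the error-weighted mean and 0.021 without clone GATA1 4-14. ICOSLG was 0.0055 with median centring and 0.038 without clone GATA1 5-13. Without clone GATA1 5-13, BAGE was -0.25 and NRIP1 -0.070. Without clone GATA1 4-14, IFNGR2 was 0.17, GABPA 0.060, DSCR1 0.16, CSTB 0.038, PDXK 0.12, MRPS6 0.26, CBR1 0.21 and LOC402026 -0.027. Leaving out 1 array, TIAM1 ranged from -0.020 to 0.017, ICOSLG from -0.042 to 0.040, ENST00000329367 from -0.073 to 0.078, LOC402026 from -0.0045 to 0.021, MRPS6 from -0.12 to 0.035, CBR1 from -0.15 to 0.026, KRTAP6-3 from -0.081 to 0.050 and KRTAP10-10 from -0.052 to 0.040. Of the 33 named genes with a mean of at least 0.1 in size, 5 moved by over 1.5 times with no background correction, IFNAR2 to -0.32 among them, 3 with the Feature Extraction log ratios, and 1 or 2 when an array was left out, namely USP16, SOD1 and SLC19A1. In 43 cases a named gene passed the adjusted limit under an alternative that took the 4 arrays as 4 values or weighted them by error. The cause of these changes was not tested. Dim genes have signals near background, which limits their ratios, and the control RNA, shared by all arrays, has no spread of its own.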
